A study of Mus musculus with 6 samples.

Results

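The genes described here encode the coats of the vesicles that carry proteins between the endoplasmic reticulum and the Golgi, together with the receptors that load cargo into them. They were chosen by symbol: the coatomer subunits with Arcn1, the Sec13, Sec16, Sec22, Sec23, Sec24 and Sec31 genes, Sar1, the Tmed family, Arf1 to Arf6, the KDEL receptors, the Lman lectins, Mcfd2 and Surf4. The rule found 52 protein-coding genes among the 55414 identifiers of each count table, and 1 matching pseudogene was dropped. A total of 51 had enough counts to be tested. Lman1l, a relative of the lectin Lman1, had 1 count in control replicate 1 and 0 counts in the other 5 libraries and was not tested.

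The counts come from pancreatic acinar cells of adult mice, which make and secrete digestive enzymes and received no treatment. All animals carried Pdx1Cre, a Cre recombinase under the promoter of Pdx1, a gene that is active in the progenitors of the whole pancreatic epithelium, so that recombination is not limited to acinar cells. The 3 control libraries were from Pdx1Cre;Trip12+/+ animals and the 3 knockout libraries from Pdx1Cre;Trip12fl/fl animals, in which both alleles of Trip12, a ubiquitin ligase gene, are floxed. The labels do not give the age in weeks, the sex or the strain. They number the preparations as biological replicates 1 to 3 in each group without stating what the numbers mean.

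New secretory proteins leave the endoplasmic reticulum in vesicles made by the COPII coat. Sar1 starts this coat, Sec23 and Sec24 form its inner layer, with Sec24 binding cargo, and Sec13 and Sec31 form its outer cage. Escaped chaperones and cargo receptors return in vesicles made by the COPI coat, in which the GTPase Arf1 recruits coatomer, a complex of α, β, β′, γ, δ, ε and ζ subunits. Acinar cells make and export large amounts of digestive enzyme by this route.

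Gene counts ran from 31019500 to 34041901 per library. Acinar markers were abundant in all 6 libraries, with summed levels of 302300 to 406000 normalised CPM (counts scaled to library size) in control and 271000 to 287100 in knockout over 9 genes. None of the 9 was at 0. Trip12 (ENSMUSG00000026219) had 29.0, 22.3 and 26.4 CPM in the controls, in replicate order, against 14.4, 14.7 and 12.97 CPM in the knockouts, so every knockout library was below every control (log2 fold change -0.89, SE 0.14, adjusted p = 0.0256, edgeR quasi-likelihood test). With library totals it was -0.49, with an adjusted p of 0.124. Counts over a whole gene do not show which exons the floxed allele lacks. Control replicates 2 and 3 had 2118 and 2440 counts of Xist, which marks female cells, against at most 5 counts in the other 4 libraries, so that sex and genotype are partly confounded. Markers of other cell types also differed between libraries. Leukocyte markers summed to 27.2 to 182 CPM in control and 28.2 to 136 CPM in knockout over 19 genes, and islet markers to 365 to 480 and 252 to 941 CPM over 11 genes. Ductal markers summed to 202 to 243 and 190 to 285 CPM over 9 genes, and stromal and endothelial markers to 31.2 to 145 and 41.9 to 162 CPM over 11 genes. Adipocyte markers summed to 3.45 to 8.84 and 4.56 to 17.2 CPM over 5 genes, with Adipoq and Lep at 0 in every library.

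As a whole, the vesicle genes took 0.202% ± 0.0164 (SD, n = 3) of gene counts in control and 0.234% ± 0.0149 in knockout. The 6 shares were 0.221%, 0.190% and 0.195% in the controls, in replicate order, against 0.217%, 0.238% and 0.245% in the knockouts, so the groups overlapped (exact two-sided permutation test, p = 0.2, where 0.1 is the smallest that 3 against 3 allows). Outside the 35 digestive enzyme genes, which took 76.0% to 78.8% of gene counts in control and 73.5% to 73.9% in knockout, the shares were 0.896% ± 0.0291 and 0.889% ± 0.0552 (exact two-sided permutation test, p = 0.9). The normalised values are CPM scaled with TMM factors, which set most genes equal between libraries. On that scale the genes summed to 2339 ± 142 CPM in controls and 2021 ± 176 CPM in knockouts (SD, n = 3), without overlap (exact two-sided permutation test, p = 0.1). In bulk preparations fewer cells of a type and less RNA per cell cannot be told apart.

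Gene by gene, 44 of the 51 tested vesicle genes had a log2 fold change below 0 (knockout minus control) and 7 above 0, against 47.6% below 0 over all 13115 tested genes. Their median was -0.18, and that of all tested genes was 0.02. The median depends on scaling. Scaled by library totals alone, the vesicle genes had a median of 0.22 and all tested genes 0.43, and 6 of the 51 stayed below 0. The distance between both medians was -0.21 under either scaling and lay between -0.29 and -0.14 over the 22 alternative fits.

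**Figure D1:**
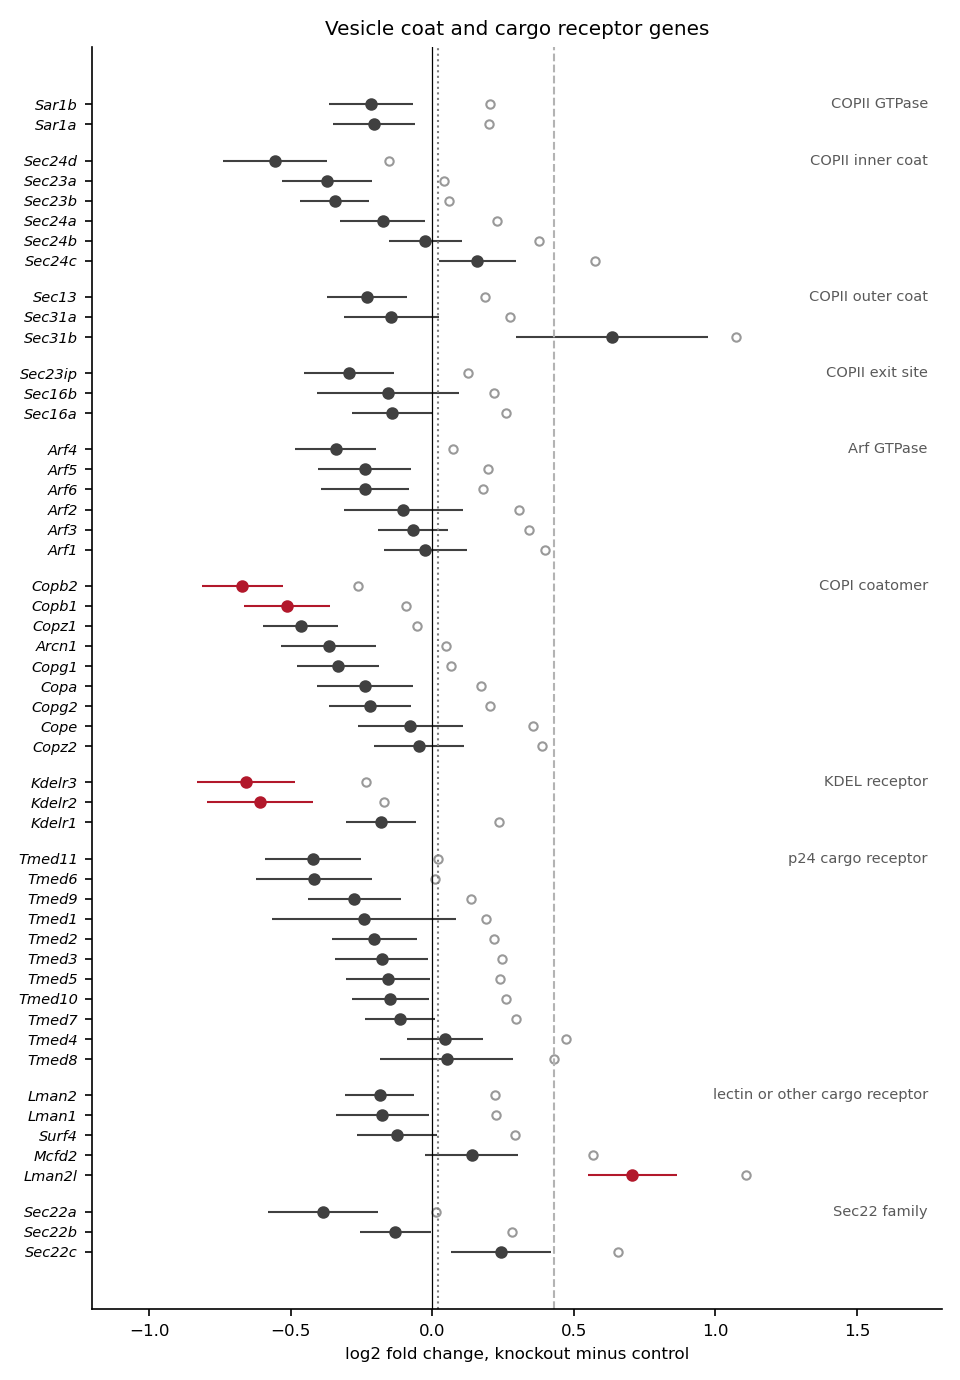
Log2 fold change (knockout minus control) of the 51 tested vesicle genes, grouped by role. Filled points with bars are estimates ± SE with TMM scaling, red where the adjusted p is under 0.05 with the replicate number as a block; open circles are the estimates with library totals. The dotted and dashed vertical lines are the medians of all tested genes under the 2 scalings (0.02 and 0.43). Copb2, Copb1, Copz1, Kdelr3, Kdelr2 and Sec24d are the 6 genes whose open circle also lies below 0.

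No vesicle gene had an adjusted p under 0.05 in edgeR's quasi-likelihood test without a block, where 0.945% of all tested genes did (0.480% lower, 0.465% higher). At an unadjusted p under 0.05 there were 11 lower and 1 higher, against 8.29% and 8.43% of all tested genes. DESeq2's Wald test called 3 lower, Copb2, Copb1 and Copz1, and limma-voom called none. The same-numbered libraries deviated together across the transcriptome (correlations of deviations 0.63, 0.455 and 0.285 in pairs 1 to 3). Control replicate 3 with knockout replicate 2 reached 0.21. Over the vesicle genes alone the numbered pairs had -0.105, 0.08 and -0.125. With the number as a block edgeR called 5 vesicle genes, 4 lower (Copb2, Copb1, Kdelr2 and Kdelr3) and 1 higher (Lman2l). This compares with 5.98% of all tested genes called, 2.58% lower and 3.39% higher. At an unadjusted p under 0.05 the block gave 12 lower and 2 higher, against 9.95% and 12.4% of all tested genes. Marker genes were also called with the block: 10 of 35 digestive enzyme genes (8 lower, 2 higher), 2 of 9 acinar (1 lower, 1 higher), 5 of 9 ductal (2 lower, 3 higher), 5 of 15 tested leukocyte (1 lower, 4 higher), 1 of 11 islet and the 1 tested adipocyte gene (both higher), and 0 of 11 stromal and endothelial genes. Their part in the vesicle gene calls was not tested. Leaving out a numbered pair moved the blocked count to 1 (without pair 1), 0 (without pair 2) and 6 (without pair 3). Without pair 1 the only controls left are those with Xist, so sex and genotype are wholly confounded in that fit. With sex as a covariate and no block, none was called. The values of these genes are therefore given library by library.

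On the TMM scale 24 of the 51 were lower in knockout in all 3 numbered pairs, against 20.7% of all tested genes. The groups did not overlap in 16 vesicle genes that were lower in knockout, against 11.0% of all tested genes. They also did not overlap in 2 that were higher, against 11.9%. For single genes, overlap is given on this scale here and below, and it depends on the scaling. Knockout replicate 1 had the lowest value of the 6 libraries in 31 of the 51 genes, and control replicate 3 in none. The same count was not made over all tested genes, so whether it is particular to the vesicle genes is not known. Over the 22 alternative fits, 6 genes were below 0 in every fit (Copb1, Copb2, Copz1, Kdelr2, Kdelr3 and Sec24d) and 5 above 0 in every fit (Lman2l, Mcfd2, Sec22c, Sec24c and Sec31b). The other 40 took both signs.

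Coatomer, the COPI coat complex, was the class with the most genes called with the block together with the KDEL receptors. All 9 subunit genes had estimates below 0 with TMM, with a median of -0.33 and a range from -0.67 to -0.05, and 3 of the 9 (Copb2, Copb1 and Copz1) with library totals. Without the block none of the 9 was called, and with it 2 were, both lower, against 2.58% of all tested genes called lower. The groups did not overlap in 5 of the 9, all lower in knockout, against 11.0% of all tested genes.

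Copb2 (ENSMUSG00000032458, chromosome 9), the β′ subunit, which binds dilysine retrieval signals on cargo, stood at 62.35, 62.3 and 64.1 CPM in controls against 33.8, 44.35 and 40.5 CPM in knockouts. On the TMM scale the controls lay close together, and every knockout library was below all of them. Without TMM factors the groups overlapped. Knockout replicate 2 then lay above control replicate 2, with 1555 of 31320636 gene counts against 1518 of 31019500. The log2 fold change was -0.67 (SE 0.14), and edgeR's quasi-likelihood test gave an adjusted p of 0.0698 without the block and 0.0179 with it. With library totals it was -0.26. Copb1 (ENSMUSG00000030754, chromosome 7), the β subunit, stood at 47.7, 52.2 and 56.2 CPM in controls. Its knockouts stood at 30.8, 37.0 and 41.6 CPM, again without overlap on the TMM scale. Its log2 fold change was -0.51 (SE 0.15), with adjusted p of 0.152 without the block and 0.0448 with it in the same edgeR test, and -0.09 with library totals. Copz1 (ENSMUSG00000060992, chromosome 15), a ζ subunit, stood at 38.6, 42.5 and 34.4 CPM in controls against 26.3, 28.0 and 29.4 CPM in knockouts, with adjusted p of 0.142 and 0.0723. Its log2 fold change was -0.46 (SE 0.13), and -0.053 with library totals (adjusted p = 0.809). With library totals and the block none of these 3 genes was called, with adjusted p of 0.253 for Copb2, 0.633 for Copb1 and 0.853 for Copz1. With sex as a covariate and no block, edgeR gave -0.66 for Copb2, -0.39 for Copb1 and -0.47 for Copz1 (adjusted p = 0.296, 0.541 and 0.412).

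The remaining coatomer genes had smaller differences. Arcn1, the δ subunit, stood at 151, 149 and 172 CPM in controls against 99.7, 129 and 137 CPM in knockouts, and Copg1, a γ subunit, stood at 40.6, 37.4 and 34.6 CPM in controls against 25.3, 32.3 and 31.7 CPM in knockouts. Neither was called with or without the block, and both were above 0 with library totals (0.047 and 0.065). Copa, the α subunit, stood at 97.6, 94.2 and 94.0 CPM in controls against 71.2, 71.6 and 99.6 CPM in knockouts, where knockout replicate 3 lay above every control. Cope, the ε subunit, ranged from 52.3 to 80.9 CPM in control and from 55.7 to 64.3 CPM in knockout, so the controls enclosed the knockouts. Copg2, the other γ gene, stood at 11.0, 13.5 and 13.2 CPM in controls against 9.50, 11.1 and 11.8 CPM in knockouts. Copz2, the other ζ gene, stood at 43.8, 61.7 and 54.9 CPM in controls against 52.7, 54.5 and 48.2 CPM in knockouts. Copz1 and Copz2 overlap the microRNA genes Mir148b and Mir152 on the same strand in the GRCm38 annotation.

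**Figure D2:**
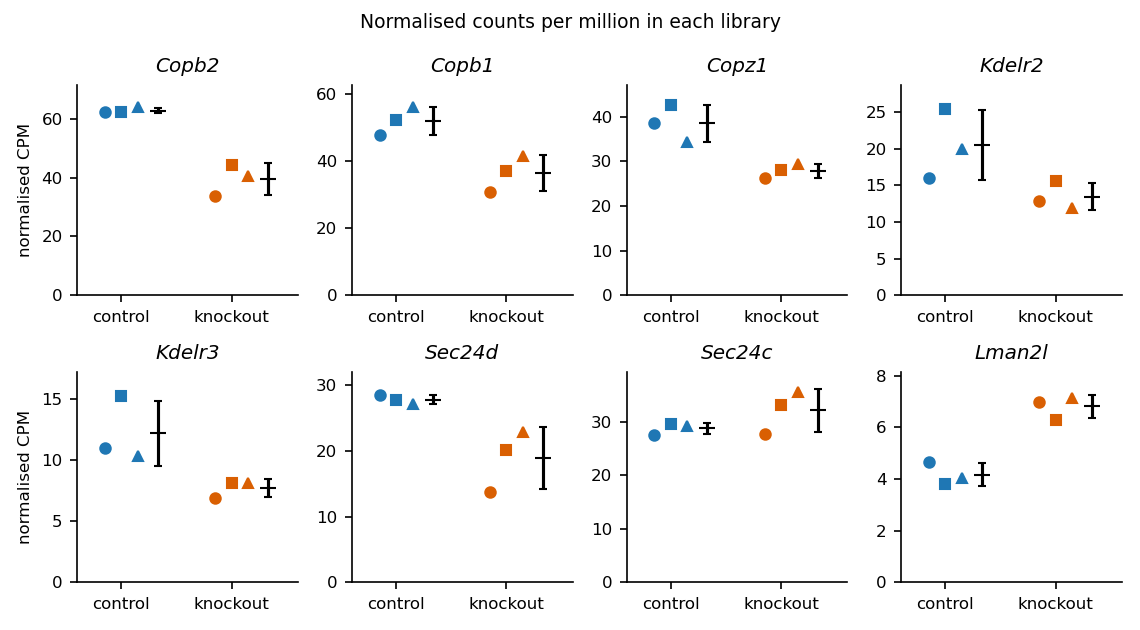
Normalised CPM of 8 vesicle genes in each library (y axes start at 0; circles, squares and triangles are replicates 1, 2 and 3; black bars are the mean ± SD of 3 libraries). On this TMM scale Copb2, Copb1, Copz1, Kdelr2, Kdelr3 and Sec24d are lower in all knockouts than in any control. Lman2l is higher in every knockout library, and the groups overlap in Sec24c.

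A share of one gene among related genes is taken within a library and does not depend on scaling. These class shares were chosen after the values of the subunits had been seen. Copb2 made up 11.4%, 10.5% and 11.0% of coatomer counts in controls against 8.23%, 9.40% and 8.16% in knockouts, a difference of -2.40 percentage points without overlap. Copb1 made up 9.08% ± 0.525 (SD, n = 3) in control and 7.92% ± 0.441 in knockout, also without overlap. Copg2 made up 2.19% ± 0.154 and 2.35% ± 0.0273, with every knockout above every control. Each of these 3 had an exact two-sided permutation p of 0.1, the smallest possible, and 0.3 after Benjamini-Hochberg adjustment over 12 class shares.

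The KDEL receptors retrieve chaperones that end in a KDEL-type signal from the Golgi. All 3 genes had all knockouts below all controls with TMM, against 11.0% of all tested genes. With the block 2 of the 3 were called lower, against 2.58% of all tested genes. With library totals Kdelr3 was at -0.23 and Kdelr2 at -0.17 (adjusted p = 0.347 and 0.422, edgeR), and with library totals and the block neither was called (adjusted p = 0.354 and 0.375). Kdelr3 (ENSMUSG00000010830, chromosome 15) stood at 11.0, 15.2 and 10.4 CPM in controls against 6.91, 8.10 and 8.15 CPM in knockouts. Its log2 fold change was -0.66 (SE 0.17), with adjusted p of 0.122 (no block) and 0.0316 (block) in edgeR's quasi-likelihood test. Kdelr2 (ENSMUSG00000079111, chromosome 5) stood at 15.99, 25.45 and 20.01 CPM in controls against 12.8, 15.5 and 11.95 CPM in knockouts, a log2 fold change of -0.61 (SE 0.19) with adjusted p of 0.163 and 0.0327. Control replicate 1 was the control closest to the knockouts for Kdelr2, at 15.99 against 15.5 CPM. With sex as a covariate and no block the log2 fold change was -0.25 for Kdelr2 and -0.51 for Kdelr3 (adjusted p = 0.720 and 0.496, edgeR). Kdelr1 (ENSMUSG00000002778, chromosome 7) stood at 39.0, 43.1 and 43.5 CPM in controls against 35.1, 37.6 and 37.9 CPM in knockouts, with an adjusted p of 0.518 without the block and 0.444 with it. Its log2 fold change was -0.18 with TMM and 0.24 with library totals.

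Per kilobase of exon, Kdelr1 was the most abundant of the 3, at 22.3 ± 1.33 CPM per kb in control (SD, n = 3) against 11.2 ± 2.60 for Kdelr2 and 8.64 ± 1.88 for Kdelr3. For the last pair these SDs are spreads between libraries and do not compare both genes within a library. Kdelr1 made up 59.1%, 51.4% and 58.9% of the counts of the 3 receptors in controls against 64.0%, 61.5% and 65.4% in knockouts, without overlap. The difference was 7.13 percentage points (exact two-sided permutation test, p = 0.1, adjusted p = 0.3 over the same 12 shares). Kdelr3 overlaps Ddx17 on the opposite strand in the GRCm38 annotation. Ddx17 had 75.1 to 89.4 CPM in control and 99.05 to 140.1 CPM in knockout, the opposite order, and the libraries do not separate strands. Reads marked as ambiguous between genes were left out of the counts. Forward- and reverse-strand counts gave Kdelr3 log2 fold changes of -0.519 and -0.762 (adjusted p = 0.181 and 0.124, edgeR without the block).

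Among COPII genes, 12 of 14 had estimates below 0 with TMM, and Sec24d alone with library totals, with a median of -0.19, and none was called with or without the block. Sec24d (ENSMUSG00000039234, chromosome 3), 1 of the 4 cargo-binding Sec24 genes, stood lowest. It stood at 28.4, 27.7 and 27.1 CPM in controls against 13.7, 20.1 and 22.8 CPM in knockouts, a log2 fold change of -0.56 (SE 0.18) with adjusted p of 0.187 without the block and 0.0591 with it. With library totals Sec24d was at -0.15 (adjusted p = 0.613, edgeR), and with library totals and the block at -0.16 (adjusted p = 0.552). On the TMM scale the controls were close together and the knockouts spread, with knockout replicate 1 farthest from control. In the blocked edgeR fit, leaving out pair 1 gave -0.38 with an adjusted p of 0.190, and leaving out pair 3 gave -0.76 with 0.00617. Without pair 1 sex and genotype are wholly confounded, so that value cannot be assigned to either.

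Its closest relative, Sec24c (ENSMUSG00000039367, chromosome 14), stood at 27.7, 29.6 and 29.2 CPM in controls against 27.8, 33.1 and 35.6 CPM in knockouts, with overlap, a log2 fold change of 0.16 and an adjusted p of 0.623. With library totals Sec24c was called higher, at 0.57 (adjusted p = 0.0409, edgeR), and also with library totals and the block (0.57, adjusted p = 0.0300). The share of Sec24c among the counts of both was 49.3%, 51.6% and 51.9% in controls against 67.0%, 62.2% and 61.0% in knockouts. This was a difference of 12.4 percentage points, with all knockouts above all controls. It had the largest size of the 13 paralog pairs compared (exact two-sided permutation test, p = 0.1, the smallest possible; adjusted p = 0.433 over the 13 pairs). Leaving out any 1 library kept the difference between 10.6 and 13.7 points. Per kilobase of exon both genes were at a like level in control, 4.58 ± 0.162 CPM per kb for Sec24c and 4.38 ± 0.105 for Sec24d (SD, n = 3).

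The other Sec24 genes showed no separation. Sec24a stood at 13.6, 12.6 and 11.8 CPM in controls against 9.61, 10.8 and 13.2 CPM in knockouts, and Sec24b stood at 15.7, 12.8 and 14.8 CPM in controls against 14.8, 14.4 and 13.4 CPM in knockouts. Sec23, the partner of Sec24 and the GTPase-activating protein of Sar1, was represented mainly by Sec23b, at 31.9, 28.9 and 30.3 CPM in controls against 22.3, 25.2 and 24.4 CPM in knockouts. Sec23a stood at 5.16, 5.79 and 4.83 CPM in controls against 3.94, 4.08 and 4.18 CPM in knockouts. Both Sec23 genes were lower in every knockout library, both were above 0 with library totals (0.043 for Sec23a and 0.060 for Sec23b), and neither was called. Sec23a made up 14.8% ± 1.64 (SD, n = 3) of the counts of both in control and 14.5% ± 0.549 in knockout, with overlap.

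Sar1a stood at 67.8, 70.7 and 57.9 CPM in controls against 51.8, 57.8 and 60.6 CPM in knockouts, and Sar1b stood at 13.2, 16.6 and 12.6 CPM in controls against 11.0, 12.2 and 13.2 CPM in knockouts. Sar1a made up 82.2% ± 1.35 of the counts of both in control and 82.4% ± 0.233 in knockout (SD, n = 3). Of the outer cage, Sec13, which also belongs to the nuclear pore, had 26.9 to 30.9 CPM in control and 21.7 to 28.3 CPM in knockout. Sec31a stood at 69.6, 80.7 and 74.5 CPM in controls against 56.5, 65.2 and 81.7 CPM in knockouts. Sec31b, its low-abundance relative, stood at 2.55, 4.56 and 3.49 CPM in controls against 5.68, 7.53 and 3.19 CPM in knockouts, so that knockout replicate 3 lay among the controls (log2 fold change 0.63, SE 0.34, adjusted p = 0.404). The exit-site scaffold Sec16a stood at 37.4, 33.9 and 34.5 CPM in controls against 27.2, 32.6 and 36.0 CPM in knockouts. Sec16b stood at 5.29, 3.00 and 3.63 CPM in controls against 3.64, 4.14 and 2.95 CPM in knockouts. Sec23ip, which binds Sec23 at exit sites, had 7.70 to 10.8 CPM in control and 6.93 to 7.77 CPM in knockout, with overlap.

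**Figure D3:**
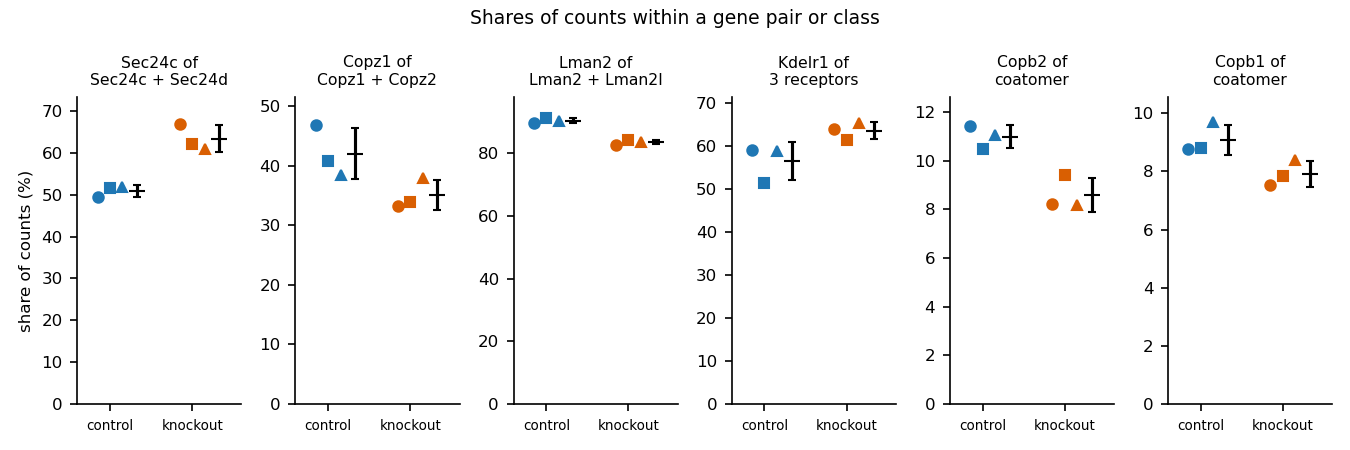
Share of counts (percent, y axes start at 0) of a gene within its paralog pair, within the 3 KDEL receptors or within the 9 coatomer genes, per library (circles, squares and triangles are replicates 1, 2 and 3; bars are the mean ± SD of 3 libraries). The groups do not overlap in any of the 6 panels, and Sec24c within Sec24c and Sec24d differs most, from 51.0% to 63.4%.

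The promoters of the genes with the lowest estimates were examined in RefSeq windows of 250 bases before to 50 bases after an annotated start, build GRCm38.p6, a build older than the GRCm39 named for the counts. Windows were found for 45 of the 52 genes. Both strands were searched for 6 elements known from secretory pathway genes, chosen with the values above known. The element TGACGTGG, the core of the unfolded protein response element bound by ATF6 and XBP1, was found in 7 of 45 vesicle genes (15.6%), against 193 of 27025 genes in the whole table (0.714%). The 7 were Copb2, Kdelr3, Sec24d, Copb1, Sec23a, Sec16b and Arf1. The first 4 are the genes with the lowest, the second lowest, the fourth and the fifth lowest estimates of all 51, and Kdelr2, the third, is 1 of the 7 genes with no window in the table. Sec23a carries the element only after its start site.

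The first 4 stretches here are from the low genes and the last pair from genes with little difference, so that the element can be seen in both. Each runs 5′ to 3′ on the strand of the gene, over the 100 bases before the start (101 for Copb2, where the element reaches the first transcribed base). Capitals mark the element, read as CCACGTCA where it lies on the opposite strand. The stretches lie at chr9:98563631-98563731 on the plus strand for Copb2, chr15:79516308-79516407 plus for Kdelr3, chr3:123267396-123267495 plus for Sec24d, chr7:114254681-114254780 minus for Copb1, chr1:157506696-157506795 plus for Sec16b and chr11:59228163-59228262 minus for Arf1.
Copb2: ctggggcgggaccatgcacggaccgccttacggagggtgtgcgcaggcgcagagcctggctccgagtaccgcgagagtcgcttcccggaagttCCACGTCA
Kdelr3: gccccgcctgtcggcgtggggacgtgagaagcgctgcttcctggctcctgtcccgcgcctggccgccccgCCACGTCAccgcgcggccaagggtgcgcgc
Sec24d: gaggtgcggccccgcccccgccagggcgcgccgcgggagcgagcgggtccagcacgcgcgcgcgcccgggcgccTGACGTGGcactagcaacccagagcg
Copb1: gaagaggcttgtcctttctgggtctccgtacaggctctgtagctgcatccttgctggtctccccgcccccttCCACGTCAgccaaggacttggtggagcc
Sec16b: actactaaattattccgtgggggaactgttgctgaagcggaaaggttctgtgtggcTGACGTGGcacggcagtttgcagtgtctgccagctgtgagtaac
Arf1: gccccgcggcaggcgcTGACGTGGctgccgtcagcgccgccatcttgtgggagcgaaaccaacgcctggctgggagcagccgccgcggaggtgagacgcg

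In the 4 low genes the element starts 7 (Copb2), 30 (Kdelr3), 26 (Sec24d) and 28 (Copb1) bases before the start site. In Sec16b and Arf1 it starts 44 and 84 bases before the start site used here. From a second annotated start of Arf1 the same element lies after the start, at position 22. Arf1 stood at 92.7, 115 and 107 CPM in controls against 96.6, 111 and 102 CPM in knockouts. All 7 vesicle genes with the element had estimates below 0 with TMM, with a median of -0.51. Of all 51 tested vesicle genes 44 were below 0, with a median of -0.18. With library totals Arf1 (0.40, adjusted p = 0.0468, edgeR), Sec16b (0.22) and Sec23a (0.043) were above 0. The 96 other tested genes with the element had a median log2 fold change of -0.002, with 49 below 0 (51.0%), against 0.02 and 47.6% over all tested genes. With the block, 3 of these 96 were called lower and 2 higher. These are matches of letters and not measured binding sites.

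The other elements were found as follows. The endoplasmic reticulum stress response elements ERSE, in which CCAAT is followed at a fixed distance by CCACG, and ERSE-II were in 0 of the 45 vesicle genes, and in 0.137% and 0.044% of all genes. The shorter TGACG, which is contained in TGACGTGG, was in 19 of 45 (42.2%) against 23.045% of all genes. CCAAT, part of ERSE, was in 18 of 45 (40.0%) against 41.1%, and the E-box CACGTG in 7 of 45 (15.6%) against 8.09%.

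The Arf GTPases recruit coats and modify Golgi membranes. All 6 had estimates below 0 with TMM, at a median of -0.17, and above 0 with library totals, and none was called with or without the block. Arf4 stood at 79.9, 88.4 and 82.9 CPM in controls against 58.0, 68.0 and 72.3 CPM in knockouts, without overlap (log2 fold change -0.34, SE 0.14, adjusted p = 0.281), and 0.074 with library totals. Arf5 stood at 22.1, 29.8 and 30.4 CPM in controls against 25.2, 24.3 and 20.2 CPM in knockouts. Arf3 stood at 29.3, 26.8 and 31.1 CPM in controls against 29.0, 26.9 and 27.2 CPM in knockouts. Arf2 and Arf6, of which the second acts at the plasma membrane, had 2.83 to 3.65 and 16.6 to 22.8 CPM in control and 2.74 to 3.48 and 14.8 to 17.2 CPM in knockout. Both overlapped between groups.

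The p24 proteins, encoded by Tmed genes, are abundant membrane proteins of both kinds of vesicle that act as cargo receptors. The 11 genes here were grouped by the symbol Tmed alone, and whether each encodes a p24 protein was not examined. Of the 11, 9 had estimates below 0 with TMM, at a median of -0.18, and none with library totals. None was called with or without the block. Tmed6 (ENSMUSG00000031919, chromosome 8) had the highest level per length of all vesicle genes, 297 ± 56.4 CPM per kb in control and 223 ± 43.6 in knockout (SD, n = 3), and stood above 99.6% of tested protein-coding genes in control. It stood at 213, 253 and 311 CPM in controls against 162, 236 and 185 CPM in knockouts, with overlap. Tmed11 came second at 64.7 ± 12.96 CPM per kb in control, with 38.4, 57.5 and 52.3 CPM in controls against 36.8, 34.5 and 39.3 CPM in knockouts. The log2 fold changes of Tmed6 and Tmed11 were -0.42 for both with TMM and 0.009 and 0.019 with library totals, and their adjusted p were 0.352 and 0.263 in the edgeR test without the block.

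Of the other Tmed genes, Tmed10, Tmed2 and Tmed3 were also high per length. They stood above 96.1%, 97.9% and 97.7% of tested protein-coding genes in control. Tmed10 stood at 104, 104 and 105 CPM in controls against 86.2, 100.3 and 96.7 CPM in knockouts, the only Tmed gene without overlap, with a log2 fold change of -0.15 (adjusted p = 0.654) and 0.26 with library totals. Tmed2 had 77.8 to 93.5 CPM in control and 68.3 to 82.7 CPM in knockout, and Tmed3 had 79.6 to 104 and 74.1 to 93.4 CPM. Tmed4, Tmed7 and Tmed9 had 18.3 to 23.9, 25.6 to 27.5 and 13.4 to 14.8 CPM in control and 21.4 to 22.5, 22.2 to 26.3 and 9.27 to 14.0 CPM in knockout. Tmed5, Tmed8 and Tmed1 were lower still, at 11.8 to 13.9, 3.41 to 5.35 and 1.67 to 2.83 CPM in control and 9.89 to 12.9, 3.75 to 5.62 and 1.45 to 2.23 CPM in knockout. All but Tmed10 overlapped between groups.

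**Figure D4:**
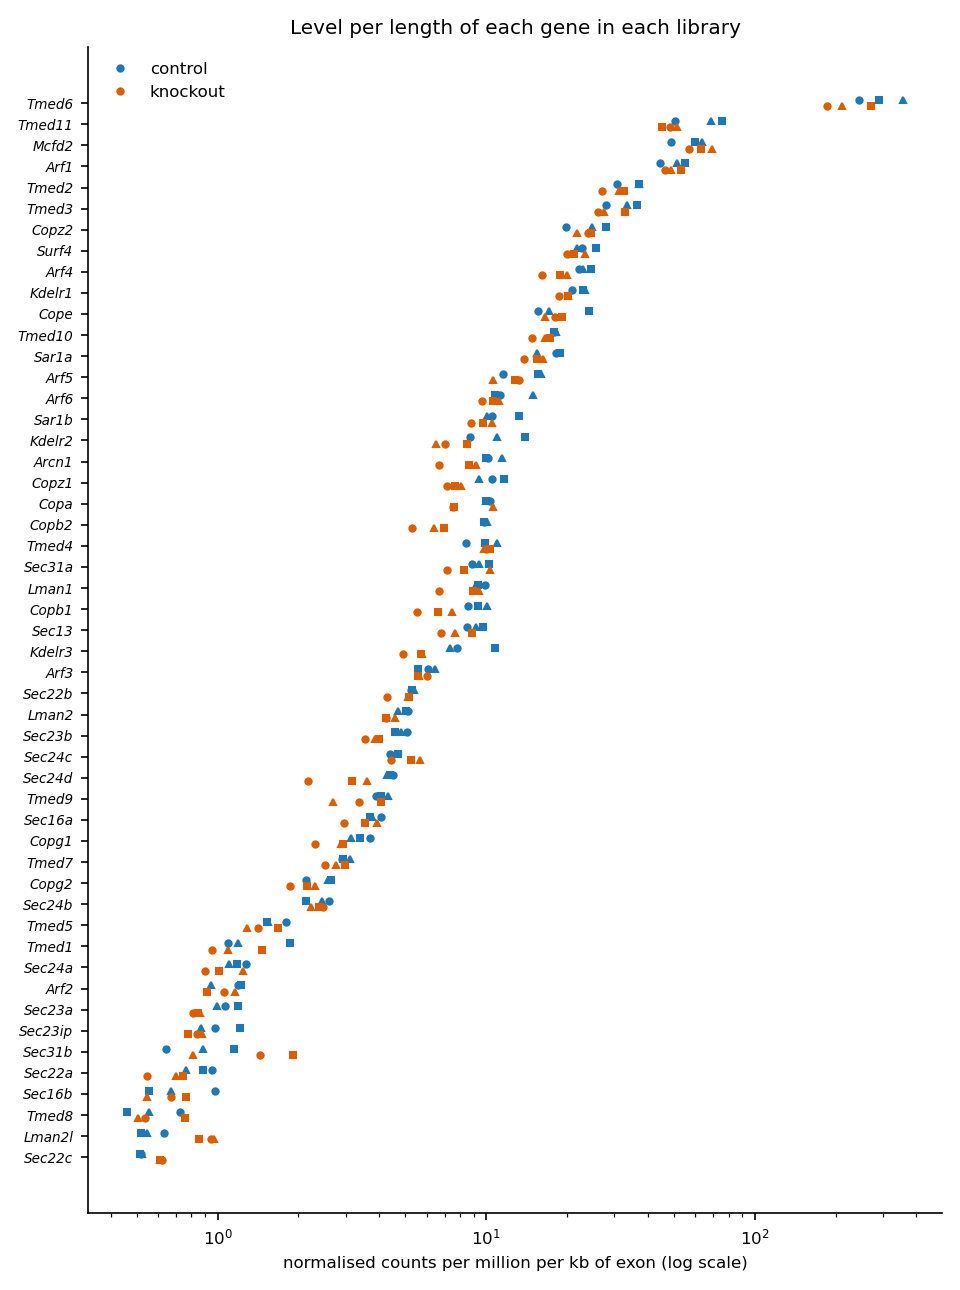
Level per length (normalised CPM per kb of exon, log scale) of the 51 tested vesicle genes in each library, ordered by the control mean; circles, squares and triangles are replicates 1, 2 and 3. Levels span from Sec22c, at 0.519 CPM per kb in control, to Tmed6, at 297, and for most genes the spread between libraries is small beside the distance between genes.

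Of the 5 tested lectin and other cargo receptor genes, 3 had estimates below 0 and 2 above, with a median of -0.12. With the block 1 was called, higher, against 3.39% of all tested genes called higher. Lman2l (ENSMUSG00000001143, chromosome 1), a lectin of the endoplasmic reticulum related to Lman2, stood at 4.66, 3.82 and 4.03 CPM in controls against 6.99, 6.30 and 7.16 CPM in knockouts. Every knockout was above every control, with a log2 fold change of 0.71 (SE 0.16) and adjusted p of 0.0737 without the block and 0.0320 with it in edgeR's quasi-likelihood test. With library totals these became 1.11 and 0.0281, and with sex as a covariate 0.55 and 0.421 (no block in either). Lman2l overlaps Fer1l5 on the opposite strand in the GRCm38 annotation, and Fer1l5 had 0.598 to 0.872 CPM in control and 1.31 to 1.77 CPM in knockout. Reads from both cannot be told apart where they overlap, since the libraries do not mark strand. Reads marked as ambiguous between genes were left out of the counts. Forward- and reverse-strand counts gave Lman2l log2 fold changes of 0.622 and 0.755 (adjusted p = 0.165 and 0.105, edgeR without the block).

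Lman2, a lectin that cycles between the Golgi and the endoplasmic reticulum, stood at 40.7, 39.9 and 37.2 CPM in controls against 33.6, 33.7 and 36.4 CPM in knockouts, lower in every knockout (log2 fold change -0.18, adjusted p = 0.502) and 0.22 with library totals. Lman2 made up 89.7%, 91.3% and 90.2% of the counts of Lman2 and Lman2l in controls against 82.8%, 84.2% and 83.6% in knockouts, a difference of -6.88 percentage points without overlap (exact two-sided permutation test, p = 0.1; adjusted p = 0.433 over 13 pairs). Lman1 and Mcfd2 form a receptor complex for clotting factors and other glycoproteins. Lman1 stood at 87.3, 82.0 and 81.1 CPM in controls against 59.1, 79.0 and 83.3 CPM in knockouts, and Mcfd2 stood at 137, 169 and 179 CPM in controls against 161, 179 and 196 CPM in knockouts. Surf4, a receptor for soluble secreted proteins, stood at 74.9, 84.3 and 71.3 CPM in controls against 65.4, 69.7 and 76.3 CPM in knockouts. These 3 overlapped between groups. Per kilobase of exon Mcfd2 stood highest of the class, at 57.3 ± 7.72 CPM per kb in control and 63.1 ± 6.13 in knockout (SD, n = 3).

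The Sec22 genes include Sec22b, a SNARE for fusion between endoplasmic reticulum and Golgi membranes. Sec22b stood at 20.9, 21.01 and 21.4 CPM in controls against 17.0, 20.5 and 20.3 CPM in knockouts, and Sec22a stood at 4.97, 4.60 and 3.995 CPM in controls against 2.87, 3.88 and 3.65 CPM in knockouts. Sec22c stood at 3.18, 3.16 and 3.20 CPM in controls against 3.80, 3.74 and 3.75 CPM in knockouts. None of the 3 genes overlapped between groups. Of them 2 were lower and 1 was higher in knockout, against 11.0% and 11.9% of all tested genes without overlap. None was called with or without the block (adjusted p from 0.365 to 0.675 without it, edgeR quasi-likelihood test). Sec22a and Sec22b were above 0 with library totals, at 0.012 and 0.28.

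The other 10 paralog pairs, besides Sec24c with Sec24d and Lman2 with Lman2l, and Copz1 with Copz2, overlapped between groups. Copz1 made up 46.9%, 40.8% and 38.5% of the counts of both ζ genes in controls against 33.3%, 33.9% and 37.9% in knockouts, a difference of -7.01 points without overlap (exact two-sided permutation test, p = 0.1; adjusted p = 0.433 over 13 pairs). Control replicate 3 and knockout replicate 3 were close, at 38.5% and 37.9%. The differences of the 10 overlapping pairs ran from -3.30 points, for Sec31a within Sec31a and Sec31b, to 5.94 points, for Kdelr1 within Kdelr1 and Kdelr2.

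Genes that act next to the coats were read from 2 lists. Of 48 genes of exit sites, Golgi tethers, fusion and regulators, 34 had estimates below 0 and none was called without the block. With it 1 was called, lower, against 2.58% of all tested genes called lower. That gene was Tfg (ENSMUSG00000022757, chromosome 16), which organises COPII vesicles at exit sites, at 24.9, 23.3 and 23.3 CPM in controls against 13.2, 13.2 and 17.6 CPM in knockouts. Its log2 fold change was -0.70 (SE 0.15), with adjusted p of 0.0677 without the block and 0.0157 with it in edgeR's quasi-likelihood test. These CPM are on the TMM scale, and without TMM factors the groups of Tfg overlapped. Knockout replicate 3 then lay above control replicate 2, with 656 of 32163072 gene counts against 567 of 31019500. With sex as a covariate and no block, no gene of the 2 lists was called. Of 23 genes of Arf exchange factors, Arf GTPase-activating proteins and retrograde tethers, 14 had estimates below 0 and none was called with or without the block. The medians of both lists were -0.13 and -0.03, beside -0.18 for the vesicle genes.

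**Figure D5:**
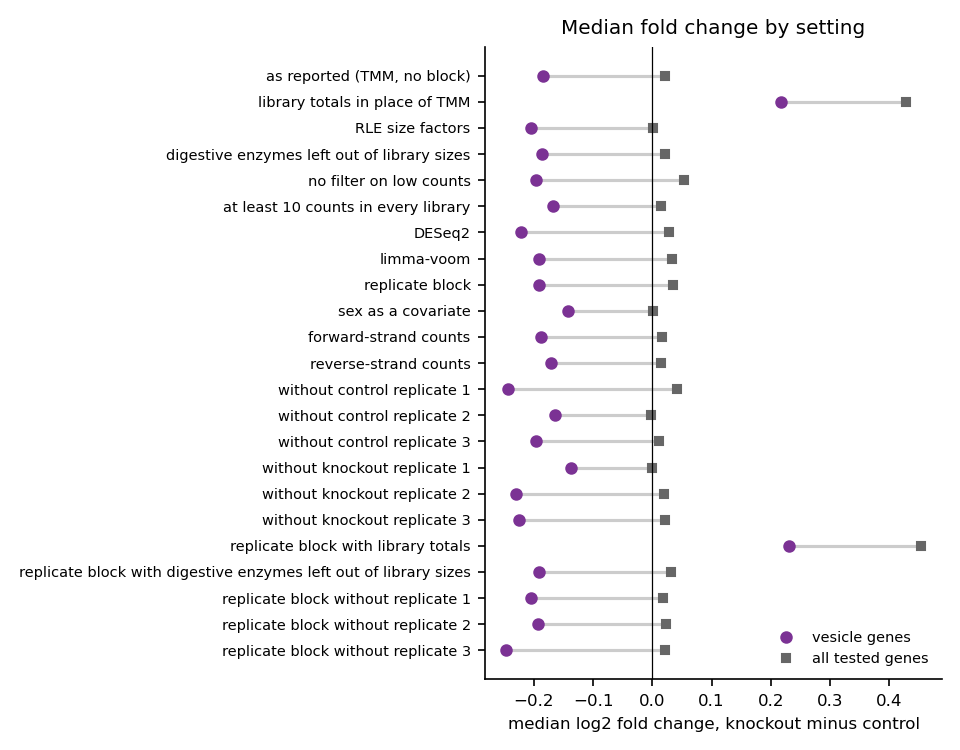
Median log2 fold change (knockout minus control) of the tested vesicle genes (circles) and of all tested genes (squares) as reported and under each of the 22 alternative fits. Library totals, with or without the block, shift both medians above 0; the vesicle genes lie to the left of all genes in every fit, by 0.14 to 0.29.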

How the data were processed

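Each of the 6 libraries was deposited by the authors as raw counts per gene (unstranded and per strand), a layout of gene counts without header. STAR 2.7.10a and builds GRCm39 and mm39 are named in the submitters' processing notes; annotation and strand setting are not given in the sources used here. RNA was poly-A enriched, per the labels' protocols. The unstranded counts were used. The 4 rows outside genes, holding reads that were unmapped, mapped to several places, outside genes or ambiguous, were left out of library sizes and tests. They held 36.9% to 45.7% of reads.

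Symbols, classes and exonic lengths came from GENCODE M21 (GRCm38), in which 52133 identifiers (94.1%) were found. Tests used edgeR 4.0.16 in R 4.3.3 (filterByExpr, 13115 genes; TMM; robust quasi-likelihood F test; Benjamini-Hochberg over all genes; calls under 0.05), with limma 3.58.1 and DESeq2 1.42.0 as alternatives. SE is the log2 fold change divided by the root of F. Tests were tried on simulated counts. Deviations from group means correlated at 0.63, 0.455 and 0.285 in numbered pairs 1 to 3 across all genes, so the block treats the numbers as pairs. No label states this pairing, and it was taken from the same counts that were then tested. Over the 51 vesicle genes the same correlations were -0.105, 0.08 and -0.125. No libraries agreed within sampling noise (chi-square per degree of freedom at least 29.6).

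Named genes were Trip12, all vesicle genes and list genes called with or without the block. Vesicle genes and lists were chosen with earlier results of these data known. Labels do not say whether replicates are separate animals, so p-values measure the spread between these preparations.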

Additional observations from a re-analysis of the deposited data

How the results depend on the processing

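Arf1 and Sec16b, at -0.025 and -0.156 as reported, changed sign under several alternatives: Arf1 was at 0.151 with the sex covariate, 0.019 without knockout replicate 1 and 0.399 with library totals, and Sec16b at 0.084 without control replicate 1 and 0.217 with library totals. With library totals (and, in brackets, with library totals and the replicate block) log2 fold changes became 0.043 (0.052) for Sec23a, 0.060 (0.076) for Sec23b, 0.074 (0.075) for Arf4, 0.047 (0.046) for Arcn1, 0.065 (0.082) for Copg1, 0.237 (0.239) for Kdelr1, 0.262 (0.270) for Tmed10, 0.223 (0.236) for Lman2, 0.012 (0.030) for Sec22a, 0.280 (0.286) for Sec22b, 0.009 (0.003) for Tmed6 and 0.019 (0.018) for Tmed11. The median of the vesicle genes became 0.218 (0.231).

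Vesicle genes called numbered 0 as reported, 5 with library totals (Lman2l, Sec24c, Arf1, Tmed4 and Mcfd2, all higher), 5 without a filter, 3 with DESeq2, 5 with the replicate block, 5 with the block and library totals, and 5 with the block and enzymes left out. Genes called over the transcriptome numbered 124 as reported, 1528 with library totals (94.96% higher, against 49.2%), 850 without a filter, 210 under a minimum of 10 counts in each library, 531 with DESeq2, 21 with the sex covariate, 784 with the block, 3260 with the block and library totals and 790 with the block and enzymes left out. Genes of the neighbouring lists called numbered 0 as reported, 11, 1, 1, 1, 1, 16 and 1 in library totals, no filter, the count minimum, DESeq2, the block, the block with library totals and the block with enzymes left out. Leaving out 1 library gave 20 to 461 genes (461 without control replicate 1), and leaving out 1 pair under the replicate block 396, 102 and 837 genes without pairs 1, 2 and 3. Both together gave 0 to 6 vesicle genes, 0 to 3 list genes, and medians of -0.247 to -0.137. Without control replicate 1, 4 vesicle genes were called (Copb2, Kdelr2 and Tmed11 lower, Lman2l higher). Without any other single library none was called. Control replicate 1 was the only control with as few Xist counts as the knockouts (3, against 2118 and 2440 in control replicates 2 and 3). In the fit without it, and in the blocked fit without pair 1, sex and genotype are therefore wholly confounded. Calls in these fits cannot be assigned to either.

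Shares turned sign in strand counts or on leaving out 1 library only where groups overlapped. The strand values were -0.322 points for Sar1a, 0.349 for Sec23a and 0.386 for Sec16a with reverse-strand counts, and 0.0446 for Sec24a, -1.98 for Kdelr2 with Kdelr3 and -0.231 for Arf1 with forward-strand counts. Leaving out 1 library gave -0.531 to 0.807 for Sar1a, -0.764 to 0.699 for Sec23a, -1.51 to 0.752 for Sec16a, -2.70 to 0.450 for Copg1, -0.849 to 2.76 for Kdelr2 with Kdelr3, -3.74 to 0.478 for Arf4 and -0.518 to 2.01 for Arf1. The summed share of the vesicle genes differed by 0.0312 points of gene counts and by -0.00722 outside the enzymes. The causes were not tested. The block fits with library totals, with enzymes left out and without a pair were chosen after seeing the data. With 3 libraries a group, exact tests cannot go below 0.1.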
